A study of Homo sapiens with 2 samples.

Results

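The peroxiredoxin family comprised 6 genes, PRDX1, PRDX2, PRDX3, PRDX4, PRDX5 and PRDX6. Loci of the isoform models were assigned to the annotated gene with which they shared most exonic sequence in the same orientation, and those bearing a peroxiredoxin symbol were kept. They made up 6 of the 12178 loci that had at least 1 C-to-U position listed in either library. No locus was assigned to a peroxiredoxin pseudogene, and whether reads of such copies were counted with the parent genes was not tested. The family was chosen by its gene symbols but also selected on measured values, the numbers of listed positions in PRDX3 and its relatives, so the differences between its genes and between the libraries are given as a description.

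HEK293T cells, a human embryonic kidney line that the labels also name HEK293XT, were examined by INSCRIBE, in which recombinant APOBEC1, a cytidine deaminase, is fused to a nanobody against rabbit IgG and edits RNA in fixed cells. In the RBFOX2-INSCRIBE library, methanol-fixed cells had received a rabbit antibody against RBFOX2, a splicing regulator that binds UGCAUG, and then the fusion, which converts nearby cytosines to uracil. In the enzyme-only library the fixed cells had received the fusion without that antibody, which gives the background of editing. Each group was 1 long-read library, so no test was made, and every difference compares these libraries and not the conditions. Exact Clopper-Pearson 95% intervals cover counting error only, and because 1 long read can carry several converted cytosines they are too narrow for sums over positions. The tables held no values for genes without a listed position, so the cell line was not checked against its markers.

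Peroxiredoxins are thiol peroxidases that reduce hydrogen peroxide and organic peroxides through a reactive cysteine, and most of them are then reduced by thioredoxin. They differ mainly in where they work and in how the oxidized cysteine is resolved. PRDX1 and PRDX2 are the abundant cytosolic members, PRDX3 is the mitochondrial one, PRDX4 acts in the endoplasmic reticulum, PRDX5 is an atypical member found in several compartments, and PRDX6 works with glutathione and also has phospholipase activity.

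RBFOX2-INSCRIBE edits in the family lay mostly in PRDX3, and within PRDX3 mostly in the 3'UTR, which holds a UGCAUG. The enzyme-only edits of PRDX3 also lay mostly in this 3'UTR. It held 16 of 23 enzyme-only positions and 69 of 92 converted reads, against 55 of 74 and 416 of 489 in RBFOX2-INSCRIBE. The following stretches of hg38, on the strand of the gene and from 5' to 3', show that hexamer, the other UGCAUG of the PRDX3 mRNA, the most converted cytosine of PRDX3, of PRDX4 and of PRDX1 in RBFOX2-INSCRIBE, and a PRDX3 cytosine, 119167746, listed in RBFOX2-INSCRIBE alone. Capitals mark the hexamer, written with T for U, in the motif lines and the converted cytosine in the others.
PRDX3 3'UTR motif, chr10:119167917-119167946, minus strand: cttaactgatcaTGCATGatccctcatccc
PRDX3 coding motif, chr10:119177074-119177103, minus strand: cctcaggcctgcTGCATGtggaagaacgag
PRDX3 3'UTR position 119167878, chr10:119167868-119167888, minus strand: ttattttattCattagctaac
PRDX3 3'UTR position 119167746, chr10:119167736-119167756, minus strand: cattgtaaaaCatacaaaata
PRDX4 coding position 23675033, chrX:23675023-23675043, plus strand: tggcgacagaCttgaagaatt
PRDX1 3'UTR position 45511198, chr1:45511188-45511208, minus strand: acaaggcaggCctttcctaca

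The deposited edit fraction of a position was its converted reads over all reads of the gene, and no position with a fraction of 0.002 or less was listed. In the 6 genes 122 cytosines were listed, 101 in RBFOX2-INSCRIBE and 44 in enzyme-only, with 23 listed in both. PRDX3 held 73.3% of the RBFOX2 positions and 52.3% of the enzyme-only positions. Of the converted reads, PRDX3 held 71.9% of 680 in RBFOX2-INSCRIBE and 39.0% of 236 in enzyme-only.

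PRDX3, on chr10:119167704-119178829 (minus strand, ENSG00000165672.7), had 74 listed positions in RBFOX2-INSCRIBE and 23 in enzyme-only. Its reads were similar in number, 1356 and 1186, and a position needed at least 3 converted reads to be listed in either library. PRDX4, on chrX:23667466-23686396 (plus strand), had 10 positions against 3 at 1996 and 1891 reads, and 4 converted reads were the least a listed position held in each. These were the members with more positions in RBFOX2-INSCRIBE by over 2-fold. The share of all genes past 2-fold by this count was not computed, so it is no result about the family.

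The other members were close between the libraries or too sparse to compare. PRDX1, on chr1:45511052-45522856 (minus strand), had 7 positions in each library at 3196 and 3082 reads. PRDX2, on chr19:12796823-12802039 (minus strand), had 8 and 6 positions at 911 and 829 reads. PRDX5, on chr11:64317119-64321810 (plus strand), had 2 and 4 positions at 717 and 672 reads. PRDX1, the most deeply read member, needed 7 converted reads for a position to be listed, while PRDX2 and PRDX5 needed 2. PRDX6, on chr1:173477330-173500298 (plus strand), had 1 position, with 3 converted reads among 1070 in enzyme-only. It was not listed in RBFOX2-INSCRIBE, so its reads there are unknown and its libraries were not compared.

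**Figure D1:**
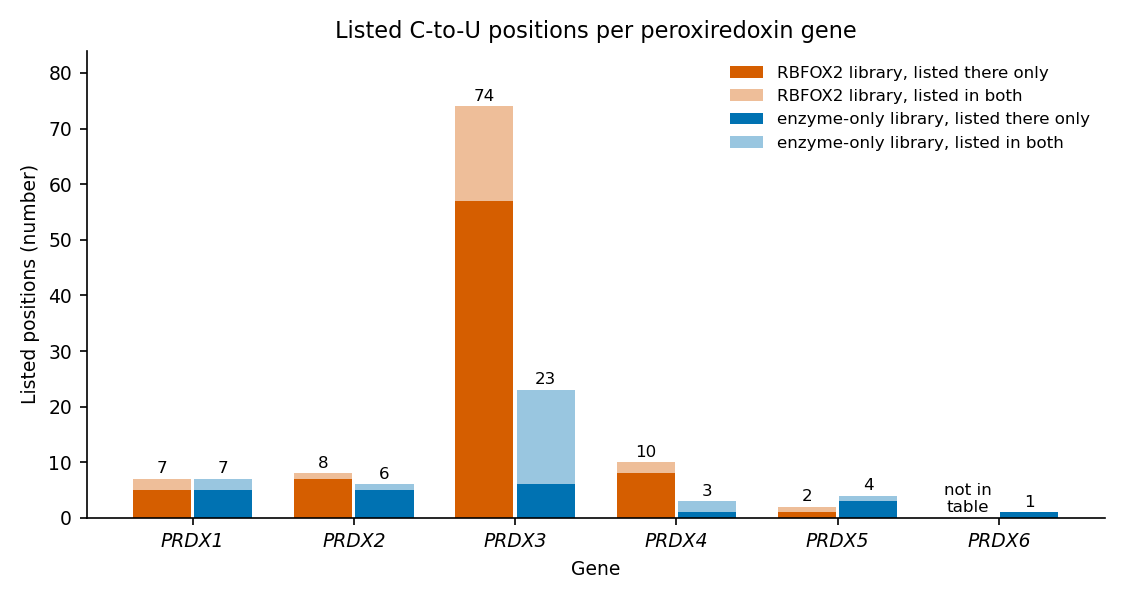
Number of listed C-to-U positions (vertical axis) of each peroxiredoxin gene (horizontal axis) in the RBFOX2 (orange) and enzyme-only (blue) libraries, with the positions listed in both libraries in the paler shade. PRDX3 stands out with 74 and 23 positions, 17 of them shared, while every other member has 10 or fewer.

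After removal of the positions listed in both libraries, PRDX3 had 57 sites in RBFOX2-INSCRIBE and 6 in enzyme-only. The log2 ratio of sites, scaled by the total sites of each library with a pseudocount of 0.5, was 2.88 (95% interval 1.77 to 4.49). PRDX3 was the one member with the 20 sites that were asked for before a ratio was read as a call. Among all 3604 genes with that many sites, 16.8% were over 2-fold higher in RBFOX2-INSCRIBE and 14.6% over 2-fold higher in enzyme-only, with a median log2 ratio of 0.08. PRDX3 ranked 32 from the top of these genes.

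The ratios of the remaining members rested on few sites. PRDX4 had 8 sites against 1, with a log2 ratio of 2.24 (-0.16 to 8.21). PRDX1 had 5 against 5, with -0.26 (-2.38 to 1.86), and PRDX2 had 7 against 5, with 0.18 (-1.65 to 2.22). PRDX5 had 1 site against 3, with a log2 ratio of -1.49 (-7.56 to 1.79). All of these intervals included 0.

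Editing was also summed as converted reads per 1000 reads of the gene, a level that counts every listed conversion and not only the distinct cytosines. Over all listed positions PRDX3 had 489 converted reads in RBFOX2-INSCRIBE, or 361 per 1000 gene reads, and 92 in enzyme-only, or 77.6 per 1000. PRDX4 had 51 and 17 converted reads, or 25.6 and 8.99 per 1000. PRDX1 had 118 and 103, or 36.9 and 33.4 per 1000. PRDX3 was therefore the most edited member in both libraries, while PRDX4 lay below PRDX1 in both and PRDX1 hardly differed between them. PRDX2 had 17.6 and 15.7 per 1000, and PRDX5 had 8.37 and 11.9 per 1000.

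As a ratio of RBFOX2 over enzyme-only, these levels gave 4.65 (3.71 to 5.87) for PRDX3 and 2.84 (1.61 to 5.25) for PRDX4. Over 2-fold higher in RBFOX2-INSCRIBE were thus 2 of the 5 members measured in both, beside 29.7% of the 789 genes that had 500 reads or more in each library. None was over 2-fold higher in the control, beside 8.75% of these genes. The median log2 ratio of levels over the 789 genes was 0.44, and PRDX3 ranked 43 from the top. The ratios of PRDX1 (1.10, 0.841 to 1.45), PRDX2 (1.12, 0.505 to 2.53) and PRDX5 (0.703, 0.201 to 2.31) had intervals that included 1. Without the shared positions the same 2 members were over 2-fold higher, at 13.4 for PRDX3 and 10.2 for PRDX4, beside 39.3% of the genes, and none was over 2-fold higher in the control, beside 12.3%. The number of members past 2-fold is therefore no result about the family, and PRDX3 differed from its relatives in the level of editing.

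A position missing from a table may still have held a few converted reads. Of the 80 PRDX3 positions listed in either library, the 57 absent from enzyme-only were set to the 2 converted reads they could have held unlisted. Over these 80 positions the ratio was then at least 2.08. The 57 were in the set only through their listing in RBFOX2-INSCRIBE, and cytosines listed in neither library were left out. The value is therefore no bound for the whole gene. The same value, over the listed positions of each gene, was 1.18 for PRDX4 and fell under 1 for PRDX1 (0.856), PRDX2 (0.728) and PRDX5 (0.625).

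PRDX3 was set beside other genes of like depth, since the listing minimum depends on the number of gene reads. Among the 108 genes with at least 1000 and under 1500 reads in both libraries, it had the highest level in RBFOX2-INSCRIBE, 361 converted reads per 1000 gene reads against 224 for the next, SRP9, and a median of 18.9. It also had the most RBFOX2 positions, 74 against 56 for the next, PPP2CA, and a median of 7. In enzyme-only PRDX3 ranked 5 of 108 by level, at 77.6 per 1000 against a median of 14.7 and a highest value of 137 in ZWINT. PRDX3 was thus high in enzyme-only too, where it held 23 positions against a median of 5 and ranked 2 behind SRP9 with 25. Among the 789 genes with 500 reads or more in each library, PRDX3 ranked 13 in RBFOX2-INSCRIBE and 53 in enzyme-only by this level.

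**Figure D2:**
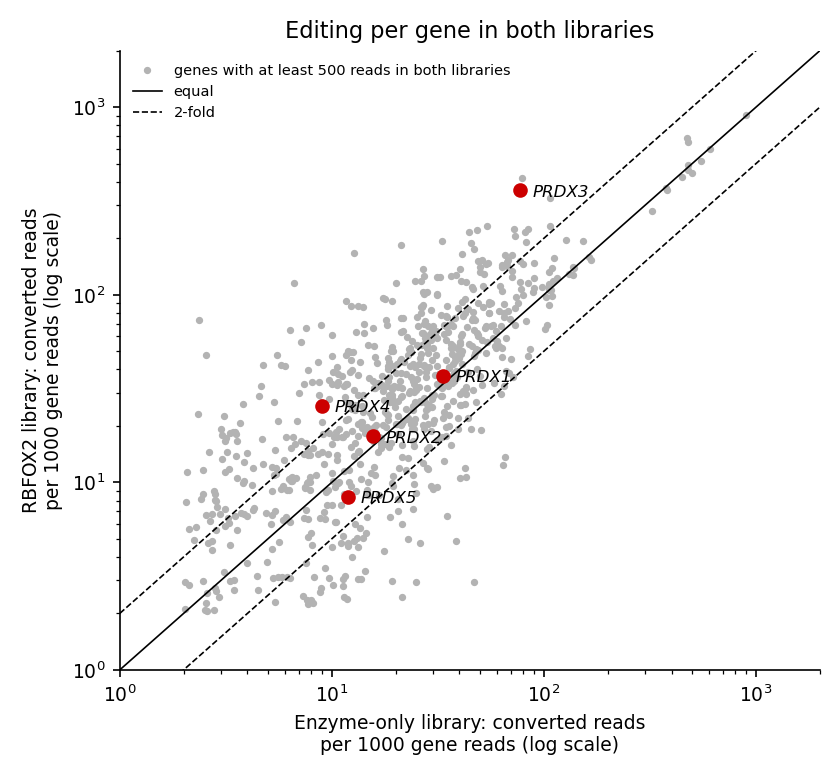
Converted reads per 1000 gene reads over all listed positions in the enzyme-only library (horizontal, log scale) and the RBFOX2 library (vertical, log scale) for the 789 genes that had 500 reads or more in both (grey), with the peroxiredoxin genes in red. The solid line marks equal levels and the dashed lines a 2-fold difference. PRDX3 (77.6 and 361) and PRDX4 (8.99 and 25.6) lie above the upper dashed line, and PRDX1, PRDX2 and PRDX5 lie between the dashed lines.

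Per exonic cytosine PRDX3 was again the highest member in each library. In RBFOX2-INSCRIBE 13.3 of every 100 exonic cytosines of PRDX3 were listed, against 3.82 in PRDX4, 1.85 in PRDX2, 1.67 in PRDX1 and 0.326 in PRDX5. In enzyme-only the values were 4.12 for PRDX3, 1.67 for PRDX1, 1.39 for PRDX2, 1.15 for PRDX4, 0.653 for PRDX5 and 0.125 for PRDX6. By this measure PRDX3 ranked 8 of 789 genes in RBFOX2-INSCRIBE and 31 in enzyme-only, where the medians were 0.923 and 0.703. The listing required between 2 and 7 converted reads, depending on the member, and the part of this in the order of the members was not tested.

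In PRDX3 the edits were densest in the 3'UTR, which is 760 nt long in the MANE Select transcript (ENST00000298510.4) and 68.6% A and U. Of its 120 cytosines, 55 (45.8%, 36.7 to 55.2) were listed in RBFOX2-INSCRIBE and 16 (13.3%, 7.82 to 20.7) in enzyme-only. APOBEC1 prefers a cytosine that follows A or U, and 77 of the 120 do. Of these 77, 55 (71.4%, 60.0 to 81.2) were listed in RBFOX2-INSCRIBE and 15 (19.5%, 11.3 to 30.1) in enzyme-only, so every RBFOX2 position of this 3'UTR followed A or U. The sum of converted reads in the 3'UTR was 416 against 69, or 307 against 58.2 per 1000 gene reads, a ratio of 5.27 (4.08 to 6.91).

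The coding sequence of PRDX3 was edited more sparsely. Of its 184 cytosines, 18 (9.78%, 5.90 to 15.0) were listed in RBFOX2-INSCRIBE and 7 (3.80%, 1.54 to 7.68) in enzyme-only. They held 70 and 23 converted reads, or 51.6 and 19.4 per 1000 gene reads, a ratio of 2.66 (1.64 to 4.47). Non-coding exons of the locus, which belong to annotated transcripts without a coding sequence, held 228 cytosines of which none was listed in either library (0 to 1.60%). That region includes the third UGCAUG of the locus, at chr10:119169563-119169568, with 21 cytosines within 50 nt. Reads were given per gene, so how many of them covered that region is unknown.

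**Figure D3:**
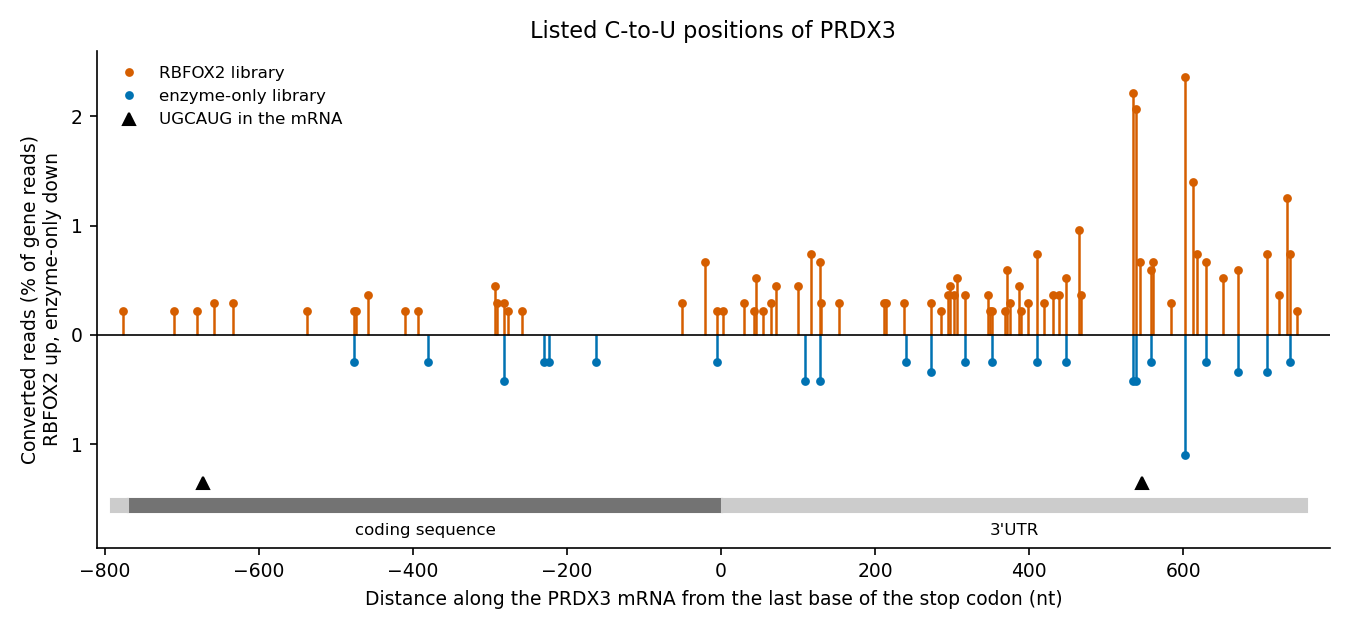
Listed C-to-U positions along the PRDX3 mRNA, by distance in nt from the last base of the stop codon (horizontal axis), with the percent of gene reads converted (vertical axis) in the RBFOX2 library upward in orange and in the enzyme-only library downward in blue. The dark bar is the coding sequence, the pale bars are the UTRs and the triangles mark UGCAUG. The highest RBFOX2 positions, near 2% of reads, lie 51, 12 and 7 nt from the 3'UTR motif. The highest enzyme-only position, 1.10%, is the one at 51 nt.

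The most converted PRDX3 cytosines lay close to the 3'UTR UGCAUG, which occupies chr10:119167929-119167934 and starts 546 nt after the stop codon. Position 119167878, which lies 51 nt on the 3' side of the hexamer, had 32 converted reads of 1356 (2.36%, 1.62 to 3.32) in RBFOX2-INSCRIBE and 13 of 1186 (1.10%, 0.585 to 1.87) in enzyme-only. Position 119167946, which lies 12 nt on the 5' side, had 30 (2.21%, 1.50 to 3.14) and 5 (0.422%, 0.137 to 0.981). Position 119167941, which lies 7 nt on the 5' side, had 28 (2.06%, 1.38 to 2.97) and 5 (0.422%). Both of the latter cytosines are in the 3'UTR motif stretch printed above, as the first base and the sixth.

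Some strong RBFOX2 positions had no listed counterpart. Position 119167868, 61 nt on the 3' side of the hexamer, had 19 converted reads (1.40%), position 119167746, 183 nt on the 3' side, had 17 (1.25%), and position 119168015, 81 nt on the 5' side, had 13 (0.959%). None of these was listed in the control, where a position could have held up to 2 converted reads unlisted. Of the 74 RBFOX2 positions, 11 had at least 10 converted reads and all 11 were in the 3'UTR, whereas 1 of the 23 enzyme-only positions did, at 119167878. The median was 4.5 converted reads in RBFOX2-INSCRIBE and 3 in enzyme-only, where 14 of 23 positions sat at the minimum of 3.

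The 3'UTR UGCAUG had 15 cytosines within 50 nt. Of these, 6 were listed in RBFOX2-INSCRIBE, at 12, 7 and 2 nt on its 5' side and at 7, 10 and 33 nt on its 3' side, and 3 in enzyme-only. The RBFOX2 level there was 4.33 converted reads per 1000 gene reads per cytosine, against 5.37 at 51 to 100 nt, 3.17 at 101 to 200 nt, 0.990 at 201 to 400 nt and 1.67 beyond 400 nt. In enzyme-only the same distances gave 0.731, 1.14, 0.531, 0.222 and 0.324. The level was thus higher within 200 nt of the hexamer than beyond in both libraries. The hexamer starts 546 nt into a 3'UTR of 760 nt. On its 5' side, distance from it and distance from the 3' end of the mRNA grow together and cannot be told apart. On its 3' side they run in opposite directions. There, RBFOX2-INSCRIBE had 62.7 converted reads per 1000 gene reads over 10 cytosines at 601 to 700 nt after the stop codon. At 701 to 760 nt it had 33.2 over 7 cytosines, and enzyme-only had 16.9 and 5.90. Which of these distances the level follows was not tested.

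Over the listed positions, the ratio between the libraries changed little with distance. It was 5.92 (3.29 to 11.6) within 50 nt, 4.70 (2.86 to 8.12) at 51 to 100 nt, 5.97 (3.57 to 10.6) at 101 to 200 nt, 4.46 (2.24 to 9.85) at 201 to 400 nt and 5.16 (2.62 to 11.3) beyond 400 nt. These intervals overlap throughout. Positions not listed in a library were left out of its sums, though each could have held up to 2 converted reads. Such positions were not spread evenly: 6 were listed in RBFOX2-INSCRIBE against 3 in enzyme-only within 50 nt, and 11 against 2 beyond 400 nt. Whether the ratio changes with distance once unlisted reads are counted was not tested. The share of listed cytosines was highest at 101 to 200 nt in RBFOX2-INSCRIBE, 19 of 27 (70.4%, 49.8 to 86.2), against 40.0% (16.3 to 67.7) within 50 nt.

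**Figure D4:**
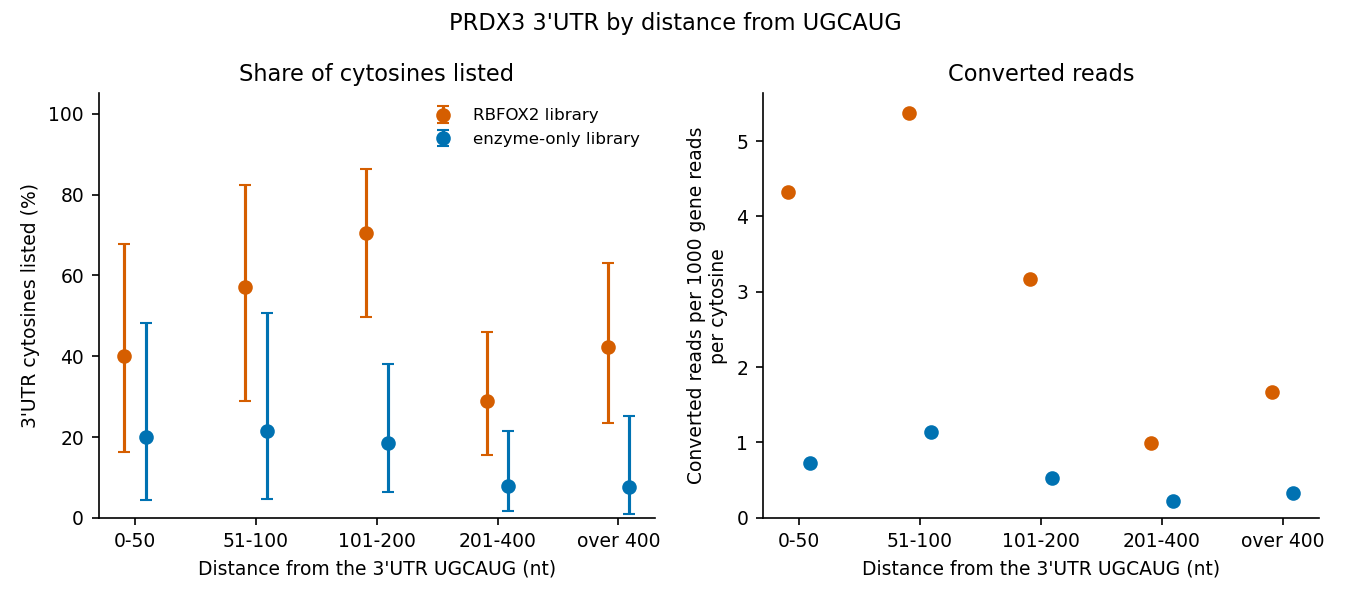
Cytosines of the PRDX3 3'UTR by distance from its UGCAUG (horizontal axes, nt) in the RBFOX2 (orange) and enzyme-only (blue) libraries. The left panel plots the percent of cytosines listed with exact 95% intervals, and the right panel plots converted reads per 1000 gene reads per cytosine. In the right panel both libraries are higher within 200 nt than beyond, from 3.17 to 5.37 against 0.990 and 1.67 in the RBFOX2 library.

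Along the 3'UTR the RBFOX2 positions were not limited to the motif. In the 100 nt after the stop codon 8 of 21 cytosines were listed in RBFOX2-INSCRIBE, with 36 converted reads, and none in enzyme-only. From 501 to 600 nt, the stretch that holds the hexamer, 6 of 15 were listed with 88 converted reads, against 3 with 13 converted reads in enzyme-only. From 601 to 700 nt the sums were 85 and 20, which in enzyme-only was the highest of the stretches.

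Near the UGCAUG of the PRDX3 coding sequence, at chr10:119177086-119177091, 26 cytosines lay within 50 nt and 4 of them were listed in RBFOX2-INSCRIBE. These were 119177129 and 119177100, with 3 converted reads each, and 119177077 and 119177053, with 4 each, so all were at or next to the minimum of 3. None of them was listed in enzyme-only. The strongest coding position lay elsewhere, at 119168501, with 9 converted reads (0.664%) in RBFOX2-INSCRIBE alone.

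Across the PRDX3 locus, 10 of 74 RBFOX2 positions (13.5%, 6.68 to 23.5) and 3 of 23 enzyme-only positions (13.0%, 2.78 to 33.6) lay within 50 nt of UGCAUG, where 11.1% of the exonic cytosines lie. Both shares thus resembled the share of cytosines available. PRDX3 was the one member with UGCAUG in its exonic sequence. In mRNAs of like length, between 1398 and 1708 nt, 424 of 1327 MANE Select transcripts (32.0%) held UGCAUG on the sense strand. Of 3'UTRs between 684 and 836 nt, 21.8% held it. The shorter GCAUG, which is part of UGCAUG, occurred 5 times in the exonic sequence of PRDX3 and of PRDX6, 2 times in PRDX2, 1 time each in PRDX1 and PRDX4, and not in PRDX5. PRDX6 has the longest 3'UTR of the family, 952 nt, without UGCAUG and with 1 listed position, and those of PRDX1, PRDX2, PRDX4 and PRDX5 were between 62 and 278 nt.

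Positions listed in both libraries allow a comparison cytosine by cytosine. In PRDX3 there were 17, of which 12 had the higher fraction in RBFOX2-INSCRIBE and 5 in enzyme-only, with a median ratio of 2.04 and a range from 0.700 to 5.25. All 12 higher positions were among the 14 in the 3'UTR, and each of the 3 in the coding sequence was lower in RBFOX2-INSCRIBE. Those 3 had 3 against 3, 4 against 5 and 3 against 3 converted reads, at or near the minimum of 3. Their intervals included 1, so they were alike in both libraries within counting error. Taken singly, 3 positions had an interval above 1, at 119167946 (5.25, 2.02 to 17.3), 119167941 (4.90, 1.87 to 16.2) and 119167878 (2.15, 1.10 to 4.47). These are the 3 most converted cytosines near the 3'UTR hexamer.

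The 6 shared positions of the other members showed no such difference. The strongest was PRDX1 45511198, which lies in the 3'UTR 131 nt after the stop codon and follows a G. It had 68 converted reads of 3196 (2.13%, 1.66 to 2.69) in RBFOX2-INSCRIBE and 55 of 3082 (1.78%, 1.35 to 2.32) in enzyme-only, a ratio of 1.19 (0.823 to 1.73). It was as strongly converted as the top PRDX3 positions, but alike in both libraries within counting error and without the A or U before the cytosine. The remaining 5 were lower in RBFOX2-INSCRIBE, and all of their intervals included 1.

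**Figure D5:**
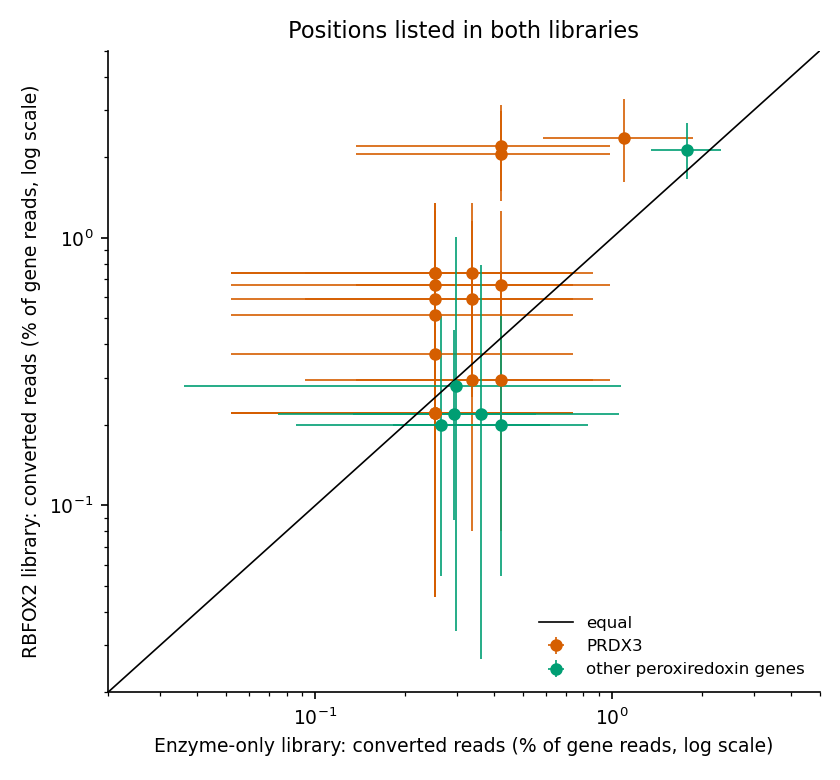
Percent of gene reads converted in the enzyme-only library (horizontal, log scale) and the RBFOX2 library (vertical, log scale) at the positions listed in both, 17 in PRDX3 (orange) and 6 in the other members (green), with exact 95% intervals as bars and the line of equal values. Near the top, 3 PRDX3 positions lie above the line with ratios of 5.25, 4.90 and 2.15, and the PRDX1 position at 2.13% and 1.78% lies close to it.

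In PRDX4 all 10 RBFOX2 positions and all 3 enzyme-only positions were coding. Its 3'UTR is 62 nt long and holds 11 cytosines, none of which was listed. Its strongest position, 23675033, had 9 converted reads of 1996 (0.451%, 0.206 to 0.854) in RBFOX2-INSCRIBE and was not listed in enzyme-only, where up to 3 converted reads could have gone unlisted. The strongest enzyme-only position, 23686327, had 8 of 1891 (0.423%) and 4 in RBFOX2-INSCRIBE (0.200%). PRDX4 thus had more positions in RBFOX2-INSCRIBE but no position that was strongly converted, and none within 50 nt of UGCAUG. The GCAUG of its coding sequence, at chrX:23675069-23675073, had 17 cytosines within 50 nt, of which 2 were listed in RBFOX2-INSCRIBE and none in enzyme-only. The PRDX4 position 23675033 is among these 2.

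The positions of the remaining members held few converted reads. In PRDX2 all 8 RBFOX2 positions had 2 converted reads (0.220%), and the strongest enzyme-only position, 12801053, which is synonymous, had 3 of 829 (0.362%) and 2 in RBFOX2-INSCRIBE. The strongest PRDX5 position, 64321063, also synonymous, had 4 converted reads of 717 (0.558%, 0.152 to 1.42) in RBFOX2-INSCRIBE and was not listed in enzyme-only. The single position of PRDX6, 173488630, lay in the 3'UTR 767 nt after the stop codon.

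The edited cytosines of the family mostly followed A or U. This held for 96 of 101 RBFOX2 positions (95.0%, 88.8 to 98.4) and 35 of 44 enzyme-only positions (79.5%, 64.7 to 90.2). In PRDX3 the shares were 73 of 74 (98.6%) and 22 of 23 (95.7%), where 53.4% of the exonic cytosines follow A or U. In the other members they were 23 of 27 (85.2%) and 13 of 21 (61.9%), so the lower enzyme-only share of the family came from genes other than PRDX3.

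Most listed coding positions were synonymous. The share of all coding cytosines whose conversion would be synonymous was not computed, so no preference can be read from this. In RBFOX2-INSCRIBE 23 were synonymous, 12 changed an amino acid and 2 made a stop codon, and in enzyme-only 16 were synonymous, 4 changed an amino acid and 2 made a stop codon. The PRDX3 stop was at 119168485, in the codon directly before the natural stop, with 3 converted reads in each library. The PRDX4 stops were at 23679184, with 5 converted reads in RBFOX2-INSCRIBE, and at 23682433, with 4 in enzyme-only.

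The isoform models were compared by editsC, the share of the exonic cytosines of an isoform that were listed, with shared positions removed. The 13 PRDX3 isoforms had an editsC of 5.81 to 25.4% in RBFOX2-INSCRIBE (median 19.4%) and 0.733 to 2.80% in enzyme-only (median 1.92%), and it was higher in RBFOX2-INSCRIBE in 13 of 13. The isoforms share most of their exons and positions were listed per gene, so these are not independent values. An isoform that ends at 119168052, with a 3'UTR of 428 nt that lacks the hexamer, had 16.2% and 2.21%. An isoform without any annotated 3'UTR, which ends at 119169742, had 5.81% and 1.24%, the lowest RBFOX2 value of the 13. Isoform usage was not measured, so whether an edit came from a given isoform is unknown.

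EditsC separated the other members less. The median over the 9 PRDX4 isoforms was 3.24% in RBFOX2-INSCRIBE and 0.495% in enzyme-only, with 8 of 9 higher in RBFOX2-INSCRIBE. For PRDX1 the median was 1.83% in both libraries over 19 isoforms, and for PRDX2 it was 2.13% and 2.22% over 6. In PRDX5 it was 0.460% and 1.29%, with 10 of 10 isoforms lower in RBFOX2-INSCRIBE, which rests on 1 site against 3.

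The thioredoxin system reduces most peroxiredoxins, and a list of 34 genes of this system and of peroxide and glutathione handling was examined in the same way. Of these, 31 had a listed position, and GPX1, GPX7 and GLRX3 had none. With at least 20 sites, 14 could be compared, of which 2 were over 2-fold higher in RBFOX2-INSCRIBE, 1 was over 2-fold higher in enzyme-only and 11 were within 2-fold, beside 16.8% and 14.6% of all genes. The median log2 ratio of the 14 was -0.05, against 0.08 over all genes. With at least 10 sites, 19 could be compared, of which GCLM, SESN1 and TXN were over 2-fold higher in RBFOX2-INSCRIBE and HMOX1 and TXNDC17 in enzyme-only, beside 19.4% and 17.2% of 5594 genes.

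The genes of the list past 2-fold were GCLM, the modifier subunit of the enzyme that starts glutathione synthesis, SESN1, a stress-induced sestrin, and HMOX1, which degrades heme. GCLM had 26 sites in RBFOX2-INSCRIBE and 5 in enzyme-only (log2 ratio 2.01), and SESN1 had 24 and 6 (1.65). HMOX1 had 5 and 30 (-2.73). These genes were read far less than PRDX3, with 111 and 119 reads for GCLM, 116 and 74 for SESN1 and 74 and 79 for HMOX1, so a position with 1 converted read could be listed. TXNRD1, the cytosolic thioredoxin reductase, was alike, with 26 and 28 sites. TXN, thioredoxin itself, fell short of 20 sites with 11 in RBFOX2-INSCRIBE and 0 in enzyme-only, at 1734 and 1628 reads, and was chosen for mention after its values were seen.

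Genes with a pattern like that of PRDX3 were sought among 757 genes that had 500 reads or more in each library and at least 1 RBFOX2 site, by the distance over the log2 numbers of sites in both libraries and the share of RBFOX2 sites near UGCAUG. CALM2, a calmodulin gene, was the nearest (distance 0.242) with 54 RBFOX2 and 6 enzyme-only sites, followed by PCNP (0.323) with 49 and 7 and HNRNPH3 (0.447) with 50 and 8. In CALM2 35.2% of the RBFOX2 sites lay within 50 nt of UGCAUG, against 12.3% in PRDX3 and 0% in both PCNP and HNRNPH3. Their likeness to PRDX3 in the numbers of sites was set by this choice. In the share near the hexamer these genes differed from PRDX3.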

How the data were processed

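Long-read C-to-U edits were analysed in 2 libraries of HEK293T cells, 1 RBFOX2-INSCRIBE library (numbered 2 in the labels) and 1 enzyme-only library (numbered 1). The labels name a PacBio Iso-Seq kit and hg38, whereas the methods of the study describe a Kinnex kit, alignment with pbmm2, primary alignments and in-house edit calling. The versions and settings behind the PacBio isoform identifiers are not given in the sources used here. Deposited with each position were a count of converted reads, a count of the gene's reads, the edit fraction, which is the former over the latter, and a confidence score, not used here. Since the reads are those of the whole gene, the fraction understates editing of cytosines that only some isoforms contain, and listed fractions were all above 0.002. The gene reads of listed loci summed to 2431345 for RBFOX2-INSCRIBE and 2233600 for enzyme-only.

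Loci were assigned to GENCODE 44 genes with bedtools 2.31.1, regions were taken as coding sequence first, and no listed position was other than C in hg38, read on its strand. Coordinates are 1-based. Sites were positions listed in 1 library only. The study took out edits shared by all of its replicates and samples, a stricter condition for removal than being listed in both libraries here. The site totals of 109357 and 91111 scaled the log2 ratios. The dbSNP filter of the study was not repeated. A log2 ratio past 1 in either direction was called for genes with at least 20 sites. Motifs were searched on the sense strand, within 50 nt in the genome. Intervals are Clopper-Pearson (scipy 1.17.1), for ratios from the RBFOX2 share of both libraries. Calculations were tested on simulated data.

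The members and gene lists were chosen with earlier results of these data known. Genes were named by rule if they were members, genes of the thioredoxin list past 2-fold or the 3 genes most like PRDX3, and SRP9, PPP2CA, ZWINT, TXN, TXNRD1, TXNDC17, GPX1, GPX7 and GLRX3 were named after their values were seen. Positions were named by rule among the most converted of each member, those listed in both libraries and those near UGCAUG, and PRDX4 23679184 and 23682433 were named afterwards for making stop codons. Alternatives were the kept shared positions, other windows, pseudocounts and minima of sites or reads, and unlisted positions set to the most they could hold. This last one and, for the log2 ratios, the kept shared positions and the common read minimum were chosen after the data were seen.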

Additional observations from a re-analysis of the deposited data

Results flagged for a closer look

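The PRDX3 positions listed in both libraries, which the comparison of sites leaves out, had more converted reads in sum in the RBFOX2 library. Together these 17 positions had 183 converted reads in the RBFOX2 library, or 135 per 1000 gene reads, and 72 in the enzyme-only library, or 60.7 per 1000. With 1 library per group this difference was not tested.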

How the results depend on the processing

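Of 151 recomputed values, 131 stayed within the limits set for them. Of 86 recomputed comparisons between the libraries, 83 kept their direction. Both counts include alternatives that could not move a member. No listed position of the 6 genes lay outside isoform exons, under 2 converted reads or over a fraction of 0.8. The common read minimum also left their numbers of sites and their levels unchanged. Values under these alternatives therefore say nothing about stability. With unlisted positions set to the most they could hold, PRDX2 turned from 15.4 against 12.1 converted reads per 1000 gene reads to 23.1 in RBFOX2 against 24.1 in enzyme-only. The log2 ratio of PRDX1 went from -0.26 to 0 without scaling, and its median editsC from equal to 2.56% against 2.63% with shared positions kept. With the positions listed in both libraries kept, the sites of the enzyme-only library rose to 44 over the family and to 23 for PRDX3, whose log2 ratio became 1.43, still past 2-fold, an alternative chosen after seeing the data. PRDX3 then had 361 and 77.6 converted reads per 1000 gene reads in the RBFOX2 and enzyme-only libraries, and median editsC of 25.2% and 7.69%. With unlisted positions set to the most they could hold, these levels were 369 and 174. A window of 200 nt put 39.7% of the RBFOX2 sites of the family near UGCAUG, against 8.97% within 50 nt. With at least 10 sites asked for, 3 of 19 genes of the thioredoxin list were over 2-fold higher with RBFOX2 and 2 with enzyme alone. The other 9 values that moved belonged to single members other than PRDX3.

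No paired analysis was possible because each group is 1 library and the labels give these different replicate numbers, and leaving out a library would leave its group empty. Edit fractions of 0.002 or less were not listed at any depth, so differences there were not detectable.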
